A study of Drosophila melanogaster with 6 samples.

Results

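Transcripts known from adult testis cDNA clones were represented on the arrays by 142 probes named after 125 clones with the prefix AT, out of 32162 gene probes with 25796 names in all. They were chosen by name alone, as probes whose name was AT and a clone number and nothing else. The clones come from an adult testis library of the Drosophila expressed sequence collection, and the name says where a transcript was first found, not that it is limited to the testis. The testis of the fly expresses many genes that are silent in most other tissues. Its spermatocytes transcribe the genes for sperm formation before meiosis and hold much of the resulting mRNA untranslated until spermatids elongate.

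The cells were HB10 cells, a Drosophila line derived from embryos in which activated Ras (UASt-ras85D V12) was driven in all cells by Act5C-GAL4, and described by the study as resembling adult muscle precursors. Both groups came from this 1 line and carried the transgenes. All cultures grew at 24 °C, after which one group was shifted to 14 °C and the other was kept at 24 °C, and total RNA was taken 24 h later from 3 biological replicates per temperature. Each of the 6 samples was hybridised to 1 single-colour Agilent array. The comparison asked which transcripts changed with a temperature at the lower end of the range that flies tolerate well.

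The arrays were alike in detection, with 57.7% to 59.4% of 43602 gene spots well above background and 0 saturated spots on each. They were not alike in brightness. Before normalisation, the 75th percentile of the spot intensity was 923 for replicate 2 at 14 °C, against 1394 to 1684.5 on the other arrays. Replicate 1 of both temperatures lay on one slide, and replicates 2 and 3 lay on the other. Of the marker genes with a probe named here, twist (twi) and vestigial (vg), which mark adult muscle precursors, were well above background on all 6 arrays, and the hemocyte factor serpent (srp) on 0. Few markers could be read, since 3011 of the 32162 probes could be given a gene symbol. Of 45 listed testis germline genes, 5 had such a probe. The paralogous spermatocyte transcription factor genes achintya (achi) and vismay (vis) were detected, and so was 1 of 2 probes of the germline helicase gene vasa (vas), at a mean signal of 6.99. The testis tubulin gene betaTub85D and scotti (soti), which acts when spermatids separate, were on 0 arrays.

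A probe was counted as detected when the scanner software gave a well-above-background flag to at least 50% of its spots, and did so for 2 or 3 of the arrays at either temperature. By this measure 47 of the 142 testis clone probes, or 33.1%, were detected, and they represented 42 of the 125 clones. The share over all gene probes was 58.5% (18813 of 32162). The other 83 clones had no detected probe. Values are given below on the log2 scale of the processed signal, and differences are 14 °C minus 24 °C. A level of one probe cannot be set against that of another, because probes differ in how strongly they bind.

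Clones of other cDNA libraries were detected more often. The share was 78.9% for clones from cultured Schneider cells (71 of 90), 72.4% for ovary clones (63 of 87), 67.0% for embryo clones (144 of 215) and 56.5% for head clones (165 of 292). The lowest share among the other libraries was 45.0% for clones with the prefix IP (109 of 242), which was still above that of the testis clones. Over all 1010 probes named after clones of other libraries, 601 were detected, or 59.5%. These are counts over probes of the same 6 arrays, so no test was made of their difference. The share of testis clones also depended on the flag used. Under the less strict flag for a positive and significant signal, 89 testis clone probes (62.7%) and 81.8% of all gene probes were counted.

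**Figure D1:**
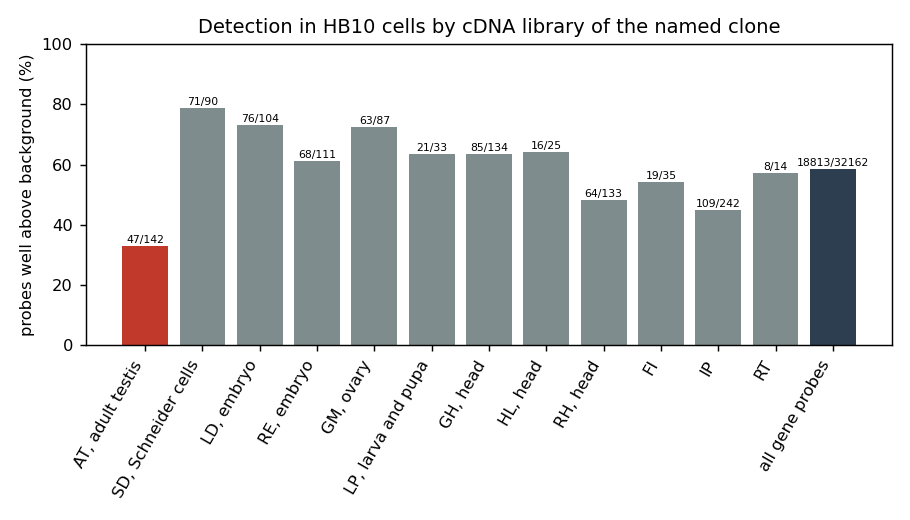
Share of probes detected in HB10 cells (vertical axis, percent) by the cDNA library of the clone that a probe is named after, with detected over all probes written above each bar. Testis clones stood at 33.1%, below each of the other libraries shown, which ran from 45.0% to 78.9%, and below all gene probes at 58.5%.

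Most testis clone probes carried the well-above-background flag on all arrays or on none. Of the 142, 39 were well above background on all 6 arrays, 83 on 0 arrays and 12 on 1 array. Single arrays held between 42 and 49 testis clone probes above background, and 43 probes were detected at both temperatures. The 95 probes that were not detected had mean levels from 6.30 to 6.75, and their mean at 14 °C differed from that at 24 °C by at most 0.23. The lowest mean level of a detected probe was 6.78, so the flag did not mark a gap in level.

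The edge of the detection rule was narrow. Just inside it lay AT11348 and AT27571. AT11348 was at 6.95, 6.99 and 6.98 at 14 °C and at 6.73, 6.70 and 6.55 at 24 °C. AT27571 was at 6.73, 6.98 and 6.78 at 14 °C and at 6.51, 6.80 and 6.86 at 24 °C, and was well above background on 1 array at 14 °C and 2 arrays at 24 °C. Just outside lay AT08601 and AT09966, each above background on 1 array, with means of 6.85 and 6.72 at 14 °C and 6.63 and 6.74 at 24 °C.

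The detected probes spanned mean levels from 6.78 to 16.70, with a median of 7.67. The brightest was AT25373, at 16.81, 16.44 and 16.65 at 14 °C and at 16.79, 16.68 and 16.80 at 24 °C. The groups of AT25373 overlapped, and the difference of -0.12 did not pass the test (limma, adjusted p = 0.449). AT15050 was at 12.93, 12.74 and 12.94 at 14 °C and at 13.09, 13.02 and 13.16 at 24 °C. All 3 cool samples of AT15050 were below all 3 warm ones, but the difference of -0.22 was not past the threshold either (limma, adjusted p = 0.112). The other members of the brightest 5 were AT02348 and one probe of AT16518, described below, and AT14009.

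Gene names could be given to 24 of the 125 clones through the synonyms in the RefSeq table, and 6 of these clones were detected. AT14009 is listed for Vha13, which encodes the G subunit of the vacuolar proton pump. Its signal was 13.24, 13.30 and 13.06 at 14 °C and 13.29, 13.35 and 13.27 at 24 °C, so that the groups overlapped (limma, difference -0.10, adjusted p = 0.459). AT28563 is listed for RpS29, a protein of the small ribosomal subunit. Its signal was 7.51, 7.60 and 7.70 at 14 °C and 7.61, 7.81 and 7.78 at 24 °C, again with overlap (limma, difference -0.13, adjusted p = 0.358). AT28817 is listed for puf, which encodes a ubiquitin-specific protease. It was at 6.87, 6.83 and 6.80 at 14 °C and at 6.90, 7.08 and 7.05 at 24 °C. The cool samples of AT28817 were all below the warm ones, with a difference of -0.18 that did not pass the test (limma, adjusted p = 0.169).

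AT23078 is listed for CG8204. Its probe was at 10.69, 10.92 and 10.62 at 14 °C and at 11.00, 10.95 and 10.96 at 24 °C, and was detected on all 6 arrays, whereas another probe that the study's annotation assigns to CG8204 was well above background on 0 arrays. Which of the probes reports the gene was not tested. AT27571 is listed for the antisense RNA asRNA:CR31429, and another probe of this RNA was also detected, with means of 6.82 at 14 °C and 6.65 at 24 °C. AT25108 is listed for Ten-m, a transmembrane protein of the teneurin family, and is described with the rises.

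The other 18 named clones were not detected. Among them were AT27450, listed for wuc, whose product interacts with the spermatocyte regulator Always early, and AT03238, listed for Vha100-3, an isoform of the large membrane subunit of the vacuolar proton pump. AT27450 was at 6.44, 6.59 and 6.45 at 14 °C and at 6.67, 6.52 and 6.59 at 24 °C. AT03238 was at 6.58, 6.44 and 6.35 at 14 °C and at 6.55, 6.30 and 6.50 at 24 °C. All of these values lay in the range of the probes that were not detected, as did another probe of wuc.

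Of the 47 detected testis clone probes, 1 was called at an adjusted p under 0.01 and at least a 2-fold difference, against 1.16% of all 18813 tested probes. It was AT26009, which was higher at 14 °C, the direction called for 0.760% of all tested probes, and 0 testis clone probes were called lower, against 0.404% of all. AT26009 was at 11.26, 11.36 and 11.14 at 14 °C and at 8.78, 8.92 and 8.86 at 24 °C. The lowest cool sample was thus far above the highest warm one. The difference was 2.40 ± 0.09 (SE, n = 3 per temperature), or 5.28-fold (limma, adjusted p = 1.00e-06), with a 95% interval of 2.20 to 2.60.

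The rise of AT26009 was seen in each replicate and on both slides. The differences between samples of the same replicate number were 2.48, 2.44 and 2.28. Before background correction and normalisation, the median spot intensity was 2896, 1675.5 and 2374.5 at 14 °C and 399.5, 471 and 489 at 24 °C, so that the groups were also apart without any scaling. Over 15 alternative settings and left-out arrays the difference lay between 2.30 and 2.74. The adjusted p stayed under 0.01 in 14 of these 15, and was 0.0119 when the arrays were scaled to equal medians instead of equal quantiles. The RefSeq table gave no gene for this clone.

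**Figure D2:**
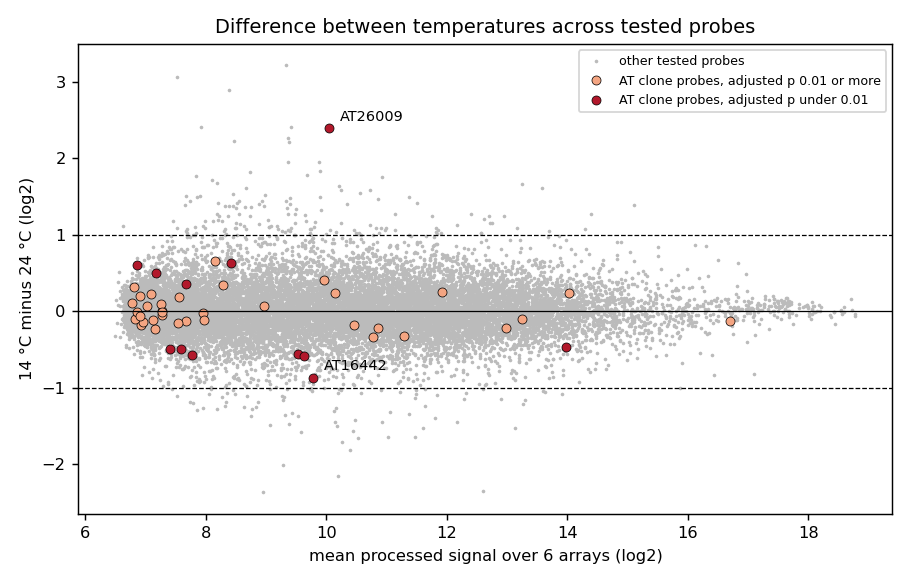
Difference between 14 °C and 24 °C (vertical axis, log2) against the mean processed signal over the 6 arrays (horizontal axis, log2) for the 18813 tested probes, with testis clone probes as large points and 2-fold marked by dashed lines. AT26009 at 2.40 is the testis clone probe beyond the dashed lines, and AT16442 at -0.87 has the lowest value among the rest.

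Smaller changes were more common. At an adjusted p under 0.01 without a minimum fold, 12 of the 47 detected testis clone probes (25.5%) differed between temperatures, against 11.7% of all tested probes. Of the 12, 5 were higher at 14 °C (all tested probes 6.16%) and 7 were lower (all tested probes 5.58%). AT07234, counted among the 5, was detected only at 14 °C and so passed the detection filter through the cool arrays alone. Its place in the count is thus not independent of the filter. With no filter on detection, 10 of the 142 testis clone probes passed (7.04%, against 6.18% of all gene probes), AT07234 among them. Over all 47 detected testis clone probes, 37 had the same sign in each of the 3 replicate numbers. This count was not made over all tested probes, so it shows nothing particular to testis clones. With the replicate number as a block, 13 testis clone probes passed (27.7%) and the count over all tested probes rose from 2207 to 3392 (18.0%), while with the slide as a block 8 testis clone probes passed (17.0%), against 9.72% of all. The 4 that lost the call with the slide block were AT02348 (adjusted p = 0.0104), AT16577 (0.0148), AT25108 (0.0148) and AT03386 (0.0178).

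The count of 12 rested on the full set of arrays. Without replicate 2 of 14 °C it was 9 (19.1%, against 11.2% of all tested probes), and without replicate 3 of 14 °C it was 11 (23.4%, against 11.6%). Without replicate 1 of 14 °C it fell to 4 (8.51%, against 6.20%). Without replicate 1, 2 or 3 of 24 °C it fell to 4 (8.51%, against 4.53%), 2 (4.26%, against 4.31%) and 4 (8.51%, against 5.72%). AT26009 and AT16442 passed in all 6 of these fits. Over the 15 alternative settings and left-out arrays, AT25108 passed in 4, AT03386 in 5, AT16577 and AT02348 in 7, AT18175, AT07234 and AT16856 in 10, AT30334 and AT05393 in 11, AT31826 in 12, and AT26009 and AT16442 in 14.

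AT16442 had the lowest difference. Its signal was 9.29, 9.39 and 9.37 at 14 °C and 10.18, 10.24 and 10.24 at 24 °C. The samples of each temperature lay within 0.1 of each other and the groups were well apart. The difference was -0.87 ± 0.08 (SE, n = 3 per temperature), 1.83-fold lower in the cool (limma, adjusted p = 0.000126). It ranged from -0.98 to -0.81 over the alternatives and passed in 14 of 15, with an adjusted p of 0.0323 under median scaling.

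The other falls had differences from -0.58 to -0.47. AT31826 was at 9.29, 9.26 and 9.47 at 14 °C and at 9.85, 10.00 and 9.92 at 24 °C. AT16856 was at 9.22, 9.37 and 9.17 at 14 °C and at 9.82, 9.88 and 9.75 at 24 °C. In both, all cool samples were below all warm ones, with differences of -0.58 and -0.56 (limma, adjusted p = 0.00210 and 0.00215).

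AT05393 was at 7.67, 7.48 and 7.33 at 14 °C and at 8.07, 8.08 and 8.05 at 24 °C, with warm samples closer together than cool ones (limma, difference -0.57, adjusted p = 0.00337). AT30334, which was spotted 2 times per array, was at 7.24, 7.16 and 7.09 at 14 °C and at 7.61, 7.68 and 7.70 at 24 °C (limma, difference -0.50, adjusted p = 0.00276). AT03386 was at 7.21, 7.30 and 7.50 at 14 °C and at 7.92, 7.90 and 7.67 at 24 °C. It was the fall with the narrowest gap between the groups, from 7.50 to 7.67 (limma, difference -0.49, adjusted p = 0.00988).

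AT02348 was the brightest of the 12. It was at 13.70, 13.89 and 13.64 at 14 °C and at 14.18, 14.28 and 14.19 at 24 °C, so that every cool sample was below every warm one. The difference was -0.47 ± 0.09 (SE, n = 3 per temperature; limma, adjusted p = 0.00594).

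Besides AT26009, 4 testis clone probes passed as higher at 14 °C in the deposited values. AT18175 was at 8.81, 8.64 and 8.78 at 14 °C and at 8.28, 8.14 and 7.92 at 24 °C, without overlap (limma, difference 0.63, 1.55-fold, adjusted p = 0.00315). AT16577 was at 7.57, 7.39 and 7.31 at 14 °C and at 6.78, 6.97 and 7.03 at 24 °C, likewise without overlap (limma, difference 0.50, adjusted p = 0.00787). AT25108, the Ten-m clone, was at 7.83, 7.85 and 7.88 at 14 °C and at 7.53, 7.48 and 7.47 at 24 °C. Its samples were the closest together of the 12 at 14 °C, and its difference of 0.36 was 1.28-fold (limma, adjusted p = 0.00921).

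AT07234 carried the well-above-background flag on all 3 cool arrays and on 0 warm arrays. It was at 7.32, 6.98 and 7.19 at 14 °C and at 6.61, 6.59 and 6.49 at 24 °C. The measured difference in the deposited values was 0.60, or 1.52-fold higher at 14 °C (limma, adjusted p = 0.00316). The warm samples were not well above background, so this ratio is uncertain, and it did not hold under another scaling, given next. AT11348, given above at the edge of the rule, had the same pattern of flags, with a difference of 0.31 in the deposited values that did not pass the threshold (limma, adjusted p = 0.0251) and also turned with the scaling. The opposite pattern, all warm and 0 cool arrays, was found for 0 testis clone probes. Neither pattern was counted over all gene probes, so these counts show nothing particular to testis clones.

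The values of these dim probes depended on scaling. With arrays scaled to equal medians over the spots above background, the median over all tested probes was -0.11, and AT07234, AT16577 and AT25108 turned to -0.10, -0.03 and -0.02. Relative to that median they were at 0.01, 0.07 and 0.09. AT11348 turned to -0.41, or -0.30 relative to the median. With the background-corrected signal of the scanner software, the differences were larger, at 3.09 for AT07234, 1.59 for AT16577, 0.67 for AT25108 and 1.49 for AT11348.

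**Figure D3:**
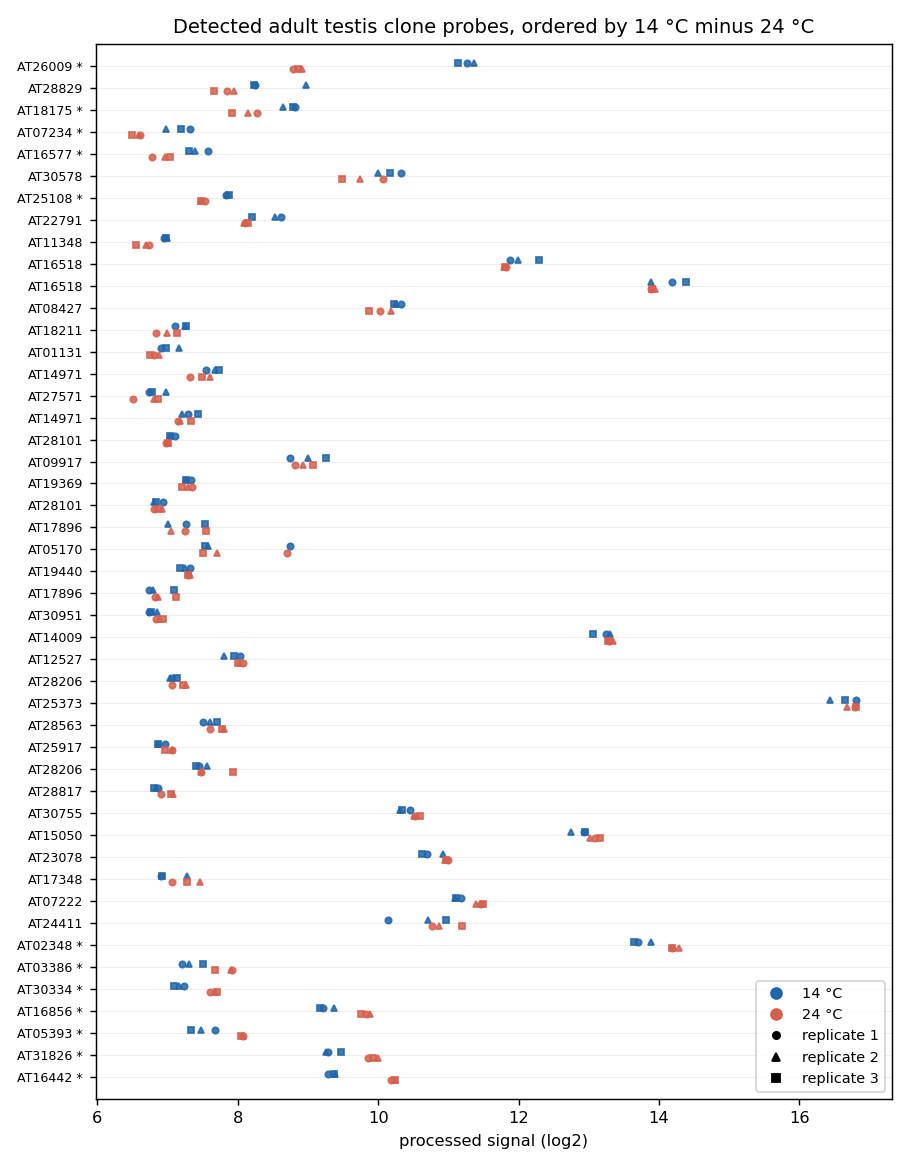
Processed signal (horizontal axis, log2) of the 47 detected testis clone probes on each of the 6 arrays, with rows in the order of the difference between temperatures, blue for 14 °C, red for 24 °C, marker shapes for replicate numbers, and a star for an adjusted p under 0.01. AT26009 at the top stands apart by 2.40, and most other rows are 1.5-fold or less apart.

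The remaining 35 detected testis clone probes did not pass, with differences from -0.34 to 0.66. AT28829 had the highest of these. One of its probes was at 8.24, 8.97 and 8.23 at 14 °C and at 7.85, 7.95 and 7.66 at 24 °C. The groups did not overlap, but replicate 2 at 14 °C stood above the other cool samples (limma, difference 0.66, adjusted p = 0.0294). With the replicate number as a block the adjusted p of AT28829 was 0.00121.

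AT07222 missed the threshold with a small and steady difference. It was at 11.18, 11.10 and 11.11 at 14 °C and at 11.46, 11.40 and 11.49 at 24 °C, without overlap (limma, difference -0.32, adjusted p = 0.0177). AT07222 was picked for mention after its values were seen. Over all 47 detected testis clone probes, 20 were higher and 27 lower at 14 °C. Of all 18813 tested probes, 9187 were higher and 9527 lower. In 24 of the 47 the groups did not overlap (51.1%, against 39.6% of all tested probes). These 24 fell into 12 higher (all tested probes 19.4%) and 12 lower (all tested probes 20.2%). The median difference was -0.05, against -0.0033 over all tested probes, and the median size of the difference was 0.22, against 0.17 over all tested probes. For 42 of the 47 the measured difference was under 1.5-fold, as it was for 17563 of the 18813 tested probes.

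For most of these probes the interval of the difference was narrow. The median SE of the difference was 0.10, and the 95% interval lay within 2-fold in both directions for 44 of the 47. The 3 whose interval reached past 2-fold were AT26009, AT16442 and AT28829.

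Several probes were present for 15 of the clones, with 32 probes in all. In 7 of these clones no probe was detected, in 3 some were, and in 5 all were. Where all were detected, none of the probes passed the threshold for a difference between temperatures. The brighter probe of AT16518 was at 14.18, 13.89 and 14.39 at 14 °C and at 13.89, 13.94 and 13.90 at 24 °C, and its dimmer probe was at 11.88, 11.99 and 12.29 at 14 °C and at 11.82, 11.79 and 11.80 at 24 °C. In both, replicate 3 at 14 °C was the highest sample, and the differences of 0.24 and 0.25 did not pass (limma, adjusted p = 0.183 and 0.134). The differences of the probes of AT14971, AT17896, AT28101 and AT28206 ran from -0.15 to 0.18, and those of AT28101 had opposite signs, at 0.07 and -0.01. A test of whether the probes of a clone changed unequally gave 0 calls among these 5 clones (limma diffSplice, adjusted p from 0.965 to 0.993), against 1.81% of 3148 names with several tested probes. At an unadjusted p under 0.05 the count was 0 of 5, against 12.2% of the 3148 names. A test without a call does not show that the probes of a clone respond alike.

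In the 3 clones with some probes detected, 1 probe of each was detected and the rest were not. In the test above only the detected probe of each entered, so unequal changes in these clones could not be called there. With no filter on detection all their probes entered, and 0 testis clones were called (limma diffSplice, adjusted p under 0.01). Probes near background can show little change, so this does not show that the probes respond alike. One probe of AT08427 was at 10.26 ± 0.05 at 14 °C and 10.02 ± 0.16 at 24 °C (SD, n = 3), while the other was at 6.63 ± 0.10 and 6.73 ± 0.02 and was on 0 arrays. For AT19369 the means of the detected probe were 7.29 and 7.28 and those of the other 6.38 and 6.43. For AT28829 the other probes were at 6.62 and 6.42 at 14 °C and at 6.58 and 6.43 at 24 °C, below the 8.48 and 7.82 of the detected one. Whether the probes of a clone bind the same transcript was not tested.

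**Figure D4:**
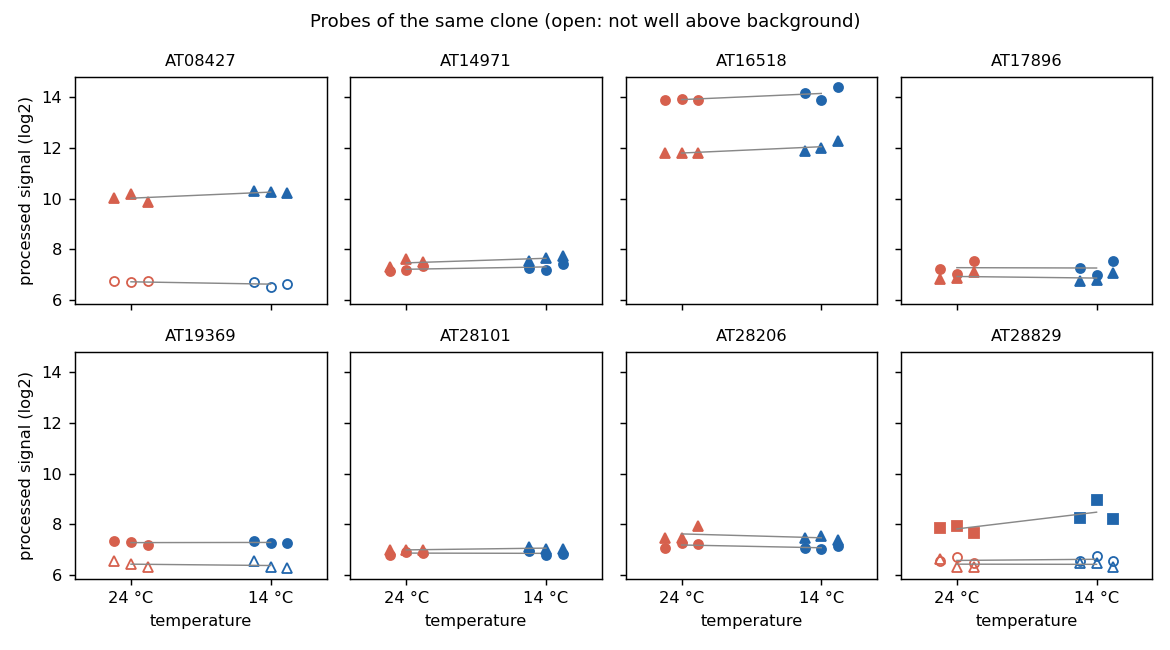
Processed signal (vertical axis, log2) on the 3 arrays of each temperature (horizontal axis) for the 8 clones with several probes of which at least 1 was detected, with 1 marker shape per probe, open where the probe was not detected, and lines joining the means. The lines of the probes of AT16518 run in parallel at about 12 and 14, while AT08427 has one probe near 10 and one near 6.7.

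The testis clone probe with the largest SD within a temperature was AT05170, where the spread went by replicate number. It was at 8.74, 7.57 and 7.54 at 14 °C and at 8.70, 7.71 and 7.51 at 24 °C. Replicate 1 was the high sample at both temperatures, by 1.19 at 14 °C and 1.09 at 24 °C over the mean of the others, or 2.27-fold and 2.13-fold. The temperatures differed by -0.02 (limma, adjusted p = 0.973). Among all 18813 tested probes, 2 (0.0106%) had replicate 1 at least 2-fold apart from the other replicates in the same direction at both temperatures. Since replicate 1 of both temperatures also shared a slide, culture and slide cannot be told apart. AT05170 was chosen for this description after its values were seen.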

How the data were processed

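Gene expression was measured in 6 samples of HB10 cells with Agilent single-colour arrays scanned with Feature Extraction 10.7.3.1. The authors deposited scanner files with spot intensity and background intensity and flag values, and a table of processed log2 values, 1 per probe. Per the methods, the authors corrected the background with normexp, normalised by quantiles, adjusted with surrogate variables, took the median over repeated spots and used limma. The deposited log2 values had nearly the same distribution on all arrays (75th percentiles from 10.15 to 10.18) and correlated with values recomputed here from the scanner files. Whether surrogate variables were removed from them could not be settled, although the residuals still spanned the 4 components that 6 arrays in 2 groups allow. All columns of per-sample values were assigned to a sample.

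Probes detected as defined in the report were tested with limma 3.58.1 in R 4.3.3 (lmFit and eBayes, two-sided) on the deposited log2 values, with no covariate, and Benjamini-Hochberg adjustment over all 18813. The call was an adjusted p under 0.01 with at least 2-fold, and counts without a minimum fold were also made. The smallest group was 3 arrays, which limits the precision. Limma's diffSplice compared probes of 1 name. Both tests were checked on simulated data first. Alternatives were processing from the scanner files (normexp with offset 50, with quantile or median scaling, or the software's background-corrected signal less the 75th percentile), the first principal component of the residuals as a covariate, replicate and slide blocks, other filters, an intensity trend, other thresholds and leaving out each array.

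Same-numbered samples deviated together from their group means (r = 0.19, 0.27 and 0.37 over 18813 probes), so a fit with the replicate number as a block was made beside the one above, which had no block and gave the values, errors and intervals printed unless the block is named. The pairing rests on these correlations, not on the labels. The probes named by rule are those called, those with an adjusted p under 0.01, the 5 brightest, those above background at 1 temperature only, clones with several probes, and those at the edge of the detection rule. Outside these rules, the 6 detected clones with a gene name were described. AT27450 and AT03238 were picked from the undetected named clones without a set rule, and AT07222 and AT05170 after their values were seen. The members, lists and rules were chosen with earlier results of these data known. A floor at the lowest signal per array that the software flagged well above background left the differences of AT07234 and AT11348 unchanged. No bound is therefore given. Clone libraries were read from the name prefix, and gene names from RefSeq synonyms or the study's annotation. No coordinates are given because the builds differ.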

Additional observations from a re-analysis of the deposited data

How the results depend on the processing

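With the background-corrected signal of the scanner software, 3 testis clone probes were called (AT26009, AT07234 and AT16577) among 710 of all tested probes, of which 71.1% were higher at 14 °C against 65.3% in the deposited values, and 7 testis clone probes (14.9%) and 1327 of all (7.06%) passed without a minimum fold. With median scaling over spots above background, limma called 0 testis clone probes and 0 of all tested probes, with or without a minimum fold, although 10 testis clone probes and 4075 of all had an unadjusted p under 0.05. AT07234, AT16577 and AT25108 then reversed to -0.10, -0.034 and -0.023. With no minimum fold the calls were 12 among testis clone probes and 2207 among all. Leaving out 1 array at a time gave 2 to 11 testis clone probes and 811 to 2177 of all tested probes (4.31% to 11.6%) at an adjusted p under 0.01. With the 2-fold minimum it gave 1 testis clone probe each time and 212 to 237 of all. The replicate block left the 2-fold calls at 1 and 222, and changed no other call among named testis clone probes than that of AT28829. Detection gave 89 testis clone probes under the less strict flag, 45 with all 3 arrays of a temperature required, 43 with both temperatures required, 46 to 47 with an array left out, and 47 without outlier spots, an alternative chosen after seeing the data. Of 180 repeats of the 12 differences, 115 kept direction and threshold, 62 kept direction only and 3 reversed. The planned surrogate variable from the sva package was not run, and the first principal component of the residuals, chosen after seeing the data, stood in for it. The causes were not tested. Signals near background limit what can be said of the dim probes.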
